A study of Mus musculus with 6 samples.

Results

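Reserve cells were compared with the myoblasts from which they descended, in C2C12 cells, an established mouse myoblast line that differentiates when serum is withdrawn. The comparison takes every library titled as reserve cell or myoblast, which is 4 of the 6 libraries of the series, 2 of each. Myoblasts were harvested as a nearly confluent layer, before differentiation began. For growth the study's methods give DMEM with fetal bovine serum, at a higher percentage than the serum used for differentiation. Reserve cells were kept for 7 days in low-serum medium (DMEM with 2% horse serum) and were separated from the myotubes of the same cultures by mild trypsinization. Serum and time in culture therefore differ together with the population, and their parts cannot be told apart. The 2 myotube libraries of the same day are given only where they place a reserve cell value. The study's methods give a shorter time in differentiation medium than the series description, so the day follows the description. The labels name no transgene or edit in any of the 3 populations. The methods state that the mild trypsin step harvests myotubes with little carry-over of reserve cells, and the number of myotubes left among the reserve cells is not given in the sources used here.

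Skeletal muscle forms when proliferating myoblasts leave the cell cycle, fuse into myotubes and switch on the genes of the contractile apparatus. In a C2C12 culture not every cell does so. Reserve cells stay mononucleated, do not fuse, and are used as a culture counterpart of the quiescent satellite cells that repair adult muscle. Quiescence is a reversible exit from the cell cycle, which sets such cells apart from myotube nuclei, whose exit is permanent.

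The 4 libraries held between 15795389 and 20055078 estimated counts, summed to genes, and a gene or unpaired transcript entered the test if it passed a filter on low counts, which left 15467. Levels below are CPM, the counts scaled to a common library size and adjusted for library composition by the trimmed mean of M-values (TMM), and each value in a pair is 1 library. The test was edgeR's quasi-likelihood test on all 6 libraries, and a gene is called changed at a Benjamini-Hochberg adjusted p under 0.05 over all 15467. Every adjusted p below comes from it, and fold changes are log2 of reserve cells over myoblasts. The replicates of a group were close, with a common biological coefficient of variation of 12.9%. The series description calls them biological replicates.

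Reserve cells and myoblasts differed in a large part of the transcriptome. Of the 15467 tested, 7133 were called, which is 46.1%. The 3762 genes that were higher in reserve cells are 24.3% of those tested, and the 3371 that were lower are 21.8%. Counts of list members below stand beside these shares. Of the 820 list genes tested 629 were called, a larger share than that of all genes, so many calls in a list are common here. At least 2-fold changes made up 16.8% (1625 higher, 981 lower), and at 4-fold or more the split was wider, with 945 higher and 318 lower. The median fold change over all genes was 0.01. When counts were scaled by library totals alone, this median became -0.06, and the share of called genes that were higher went from 52.7% to 45.5%, so which direction held more called genes turned with the scaling. On the first principal component of log2 CPM (72.3% of the variance) the reserve cells lay between myoblasts and myotubes, at 9.93 and 10.2 against -117 and -116 for the myoblasts and 107 and 106 for the myotubes. On the second (15.4%) they lay apart from both, at -58.7 and -60.0 against 22.7 to 35.4. Of the genes called higher than in myoblasts, 63.0% had a reserve cell mean between myoblasts and myotubes and 37.0% had one above both. Of those called lower, 66.8% lay between and 33.2% below both. Over all genes tested 57.7% lay between, so the share between is near that of all genes.

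**Figure D1:**
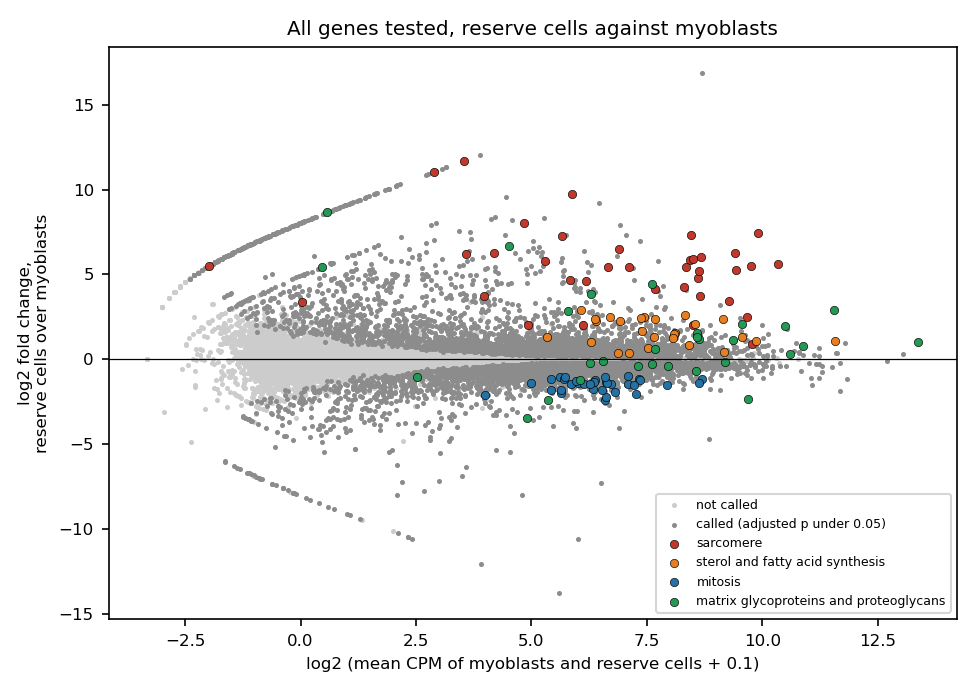
Each point is 1 of 15467 genes or unpaired transcripts, with mean CPM of myoblasts and reserve cells on the x axis (log2, 0.1 added) and the log2 fold change of reserve cells over myoblasts on the y axis. Sarcomere genes (red) and sterol and fatty acid genes (orange) lie above 0, mitosis genes (blue) lie below 0, and matrix glycoproteins (green) lie on both sides. The curved edges are genes listed at 0 in one group, whose fitted values are not measured folds.

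The genes of cell division fell as a group, and stopped well short of their level in myotubes. All 34 genes of mitosis tested were lower in reserve cells than in myoblasts, 33 of them at least 2-fold, with a median fold change of -1.44 against 0.01 over all genes. Of 32 genes of DNA replication, 28 were lower, none was higher and the median was -0.79. Mki67, the standard marker of cycling cells, was at 578 and 580.3 CPM in the myoblasts, 213 and 219.9 CPM in the reserve cells and 36.2 and 44.4 CPM in the myotubes. The myoblast and reserve cell libraries did not overlap, which is common here, as it held for 11572 of the 15467 tested. The fall was 2.67-fold (log2 fold change -1.42, SE 0.0778, adjusted p = 2.02e-06).

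Among the cell cycle genes named here, the mitotic genes Ccnb1 and Cdc20 showed the largest declines, closely followed by Ccnd1 (-2.20), given below. Ccnb1, the cyclin that drives entry into mitosis, was at 164 and 159.9 CPM in the myoblasts and 29.8 and 31.4 CPM in the reserve cells (log2 fold change -2.40, SE 0.102, adjusted p = 4.42e-07). Cdc20, which activates the anaphase-promoting complex, went from 160.0 and 163 CPM to 34.6 and 34.4 CPM (log2 fold change -2.22, SE 0.085, adjusted p = 2.22e-07). Kif20a, a kinesin of cytokinesis, and Top2a, the topoisomerase that untangles replicated chromosomes, had fold changes of -2.07 and -1.14. Top2a was still at 257 and 263 CPM in the reserve cells, against 49.8 and 52.2 CPM in the myotubes.

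Replication genes fell less. Uhrf1, which recruits the maintenance DNA methyltransferase to replicated DNA, fell most of the list, from 171 and 169 to 58.6 and 63.1 CPM (log2 fold change -1.48, SE 0.0737, adjusted p = 1.11e-06). Mcm2, Mcm5 and Mcm6, subunits of the replicative helicase, had fold changes of -0.98, -0.97 and -1.0. Rrm2, a subunit of the enzyme that makes deoxyribonucleotides, changed by only -0.38 (SE 0.0459, adjusted p = 2.31e-04). The 4 members not called were Gins1 (-0.68, adjusted p = 0.0596), Pcna (-0.26, adjusted p = 0.09), Rpa2 (-0.14, adjusted p = 0.276) and Rrm1 (-0.08, adjusted p = 0.244).

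Most cell cycle genes were lower still in the other day 7 population. Against myotubes, 33 of the 34 mitosis genes and 30 of the 32 replication genes were higher in reserve cells, and 1 gene of each list was called lower. Of all genes 28.4% were higher and 27.2% lower in that comparison. The median difference was 2.25 for mitosis and 1.73 for replication on the log2 scale. The exception in the mitosis list was Ube2c, a ubiquitin-conjugating enzyme of anaphase, at 126 and 136 CPM in the myoblasts, 83.0 and 43.9 CPM in the reserve cells and 91.6 and 167 CPM in the myotubes.

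The switches upstream of division moved in both directions. Ccnd1, the cyclin D that answers to growth factors, went from 281 and 263 CPM in myoblasts to 60.7 and 57.5 CPM in reserve cells (log2 fold change -2.20, SE 0.0734, adjusted p = 9.52e-08). Its kinases Cdk4 and Cdk6 fell by 0.75 and 1.47 on the log2 scale. Ccnd3, the cyclin D of muscle differentiation, rose from 271 and 270.2 to 433 and 419.8 CPM and was the only one of 9 cyclins and kinases of the first gap phase called higher, with 5 lower. Among 10 E2F and partner factors, 4 were higher and 5 lower. E2f7 and E2f8, which repress replication genes, fell (-0.72 and -0.60), E2f2 rose (0.85), and E2f1 was not called (-0.17, adjusted p = 0.189).

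Of the inhibitors that hold cells out of the cycle, Cdkn1a rose most. It encodes p21, an inhibitor of cyclin-dependent kinases, and was at 229.8 and 219 CPM in the myoblasts, 1282 and 1183 CPM in the reserve cells and 3295 and 3306 CPM in the myotubes. The rise over myoblasts was 5.49-fold (log2 fold change 2.46, SE 0.0444, adjusted p = 3.32e-09), and the reserve cell level was 37.3% of the myotube level. Cdkn1c, which encodes p57, went from 5.60 and 6.87 to 13.9 and 14.4 CPM (log2 fold change 1.18, SE 0.241, adjusted p = 0.00438). Cdkn1b, which encodes p27, was at 79.1 and 84.8 CPM in the myoblasts and 75.9 and 71.3 CPM in the reserve cells and was not called (-0.16, 95% interval -0.32 to 0.01, adjusted p = 0.12). With library totals it was called lower. The pocket proteins split, with Rb1 (0.95) and Rbl2 (0.59) higher and Rbl1 (-0.67) lower. Rbl2 encodes p130, the pocket protein of resting cells. In all, 4 of 8 inhibitors and pocket proteins were higher and 3 lower, with Cdkn2c and Cdkn2d the other 2 that fell, though both lost the call without myoblast library 1 and Cdkn2d also without myoblast library 2 or reserve cell library 2, and Cdkn2a and Cdkn2b had no count in any library.

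**Figure D2:**
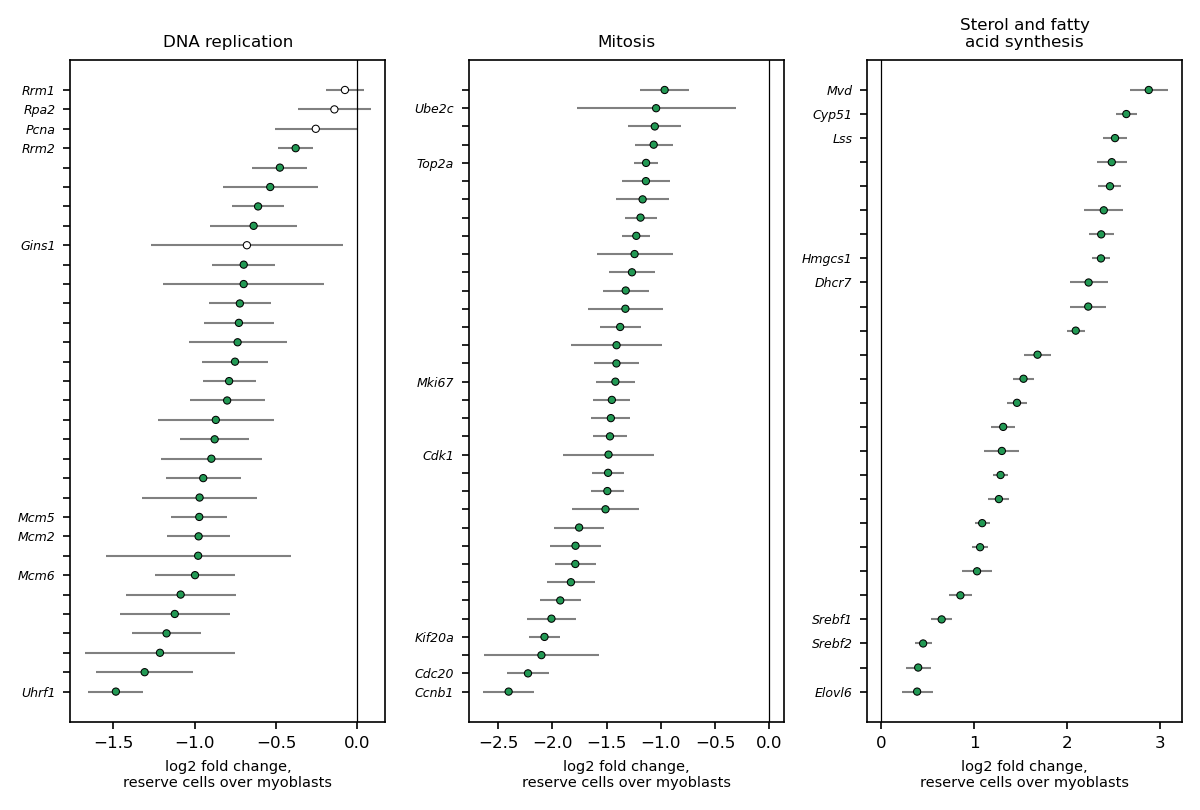
Log2 fold change of reserve cells over myoblasts (x axis) for each tested gene of DNA replication, mitosis and sterol and fatty acid synthesis, with the 95% interval of the edgeR fit (line); filled points are called, open points are not, and genes described in the text are labelled. All 34 mitosis genes lie below 0 and all 26 sterol and fatty acid genes lie above 0.

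Promoters of 3 cell cycle genes are printed here because these genes moved together. The motifs searched on both strands were TTTGAA (the cell cycle homology region, CHR), CCAAT, TTTGGCGC or TTTCCCGC (the form of E2F site used), CAGCTG (an E-box) and TGACTCA (an AP-1 site). The window was 250 bases before to 50 bases after the first listed start of each gene, from RefSeq on build GRCm38.p6, the assembly of mm10. Of the 34 mitosis genes 27 matched a promoter, and 21 of these (77.8%) held TTTGAA, against 18.1% of all 27025 promoters and 11.9% of the promoters of genes tested. In the 250 bases before the start alone the share was 40.7% of mitosis promoters and 16.3% of all promoters. CCAAT was in 22 of the 27 (81.5%), against 37.9% of all promoters. Of the replication genes 27 of 32 matched, 9 (33.3%) held the E2F sequence, against 1.63% of all promoters and 2.99% of those of genes tested, and 17 (63.0%) held CCAAT. In the 250 bases before the start alone the E2F share was 18.5% of replication promoters and 1.35% of all promoters. The capitals below mark the matches, and all 3 genes lie on the minus strand. In Cdk1 (chr10:69352863-69353162), the kinase of mitosis, TTTGAA begins 71 and 15 bases before the start. In Top2a (chr11:99024140-99024439) TTTGAA begins 179 bases before the start and is read on the other strand, as TTCAAA, 23 bases before it, beside 6 CCAAT matches. In Mcm6 (chr1:128359656-128359955) the capitals mark TTTGGCGC, 110 and 47 bases before the start, and CCAAT read as ATTGG. A match describes these letters and is not evidence of binding.
Cdk1: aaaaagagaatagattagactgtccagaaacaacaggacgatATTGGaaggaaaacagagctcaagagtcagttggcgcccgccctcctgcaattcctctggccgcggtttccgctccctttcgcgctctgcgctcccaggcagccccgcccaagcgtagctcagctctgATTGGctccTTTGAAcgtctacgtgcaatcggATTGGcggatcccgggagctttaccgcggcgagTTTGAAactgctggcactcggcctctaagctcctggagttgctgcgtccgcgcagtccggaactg
Top2a: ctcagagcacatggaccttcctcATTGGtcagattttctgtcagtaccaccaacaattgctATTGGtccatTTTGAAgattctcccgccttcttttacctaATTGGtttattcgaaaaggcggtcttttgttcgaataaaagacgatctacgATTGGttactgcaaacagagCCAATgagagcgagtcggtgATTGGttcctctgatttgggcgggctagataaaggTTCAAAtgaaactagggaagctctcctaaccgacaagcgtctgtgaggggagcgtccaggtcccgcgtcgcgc
Mcm6: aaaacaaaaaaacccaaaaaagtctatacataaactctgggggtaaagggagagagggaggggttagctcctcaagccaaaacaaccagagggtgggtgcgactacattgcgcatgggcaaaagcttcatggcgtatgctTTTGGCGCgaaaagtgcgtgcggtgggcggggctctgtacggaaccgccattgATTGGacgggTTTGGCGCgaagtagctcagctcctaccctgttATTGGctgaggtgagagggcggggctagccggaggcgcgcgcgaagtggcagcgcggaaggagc

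Markers of satellite cells did not move as one block. Of 17 tested, 12 were higher in reserve cells than in myoblasts and 3 were lower, against 24.3% and 21.8% of all genes tested. Compared with myotubes 11 were higher, as were 28.4% of all genes. Pax7, the transcription factor that defines satellite cells, was at 72.9 and 68.3 CPM in the myoblasts, 61.3 and 65.5 CPM in the reserve cells and 8.75 and 11.2 CPM in the myotubes. Its reserve cell and myoblast libraries did not overlap, but the difference was not called (-0.15, SE 0.0988, 95% interval -0.38 to 0.07, adjusted p = 0.243). Against myotubes it was higher by 2.66 on the log2 scale (adjusted p = 3.94e-07).

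Surface markers went both ways. Cd34, a sialomucin of stem cells, rose from 31.6 and 32.6 to 52.7 and 45.9 CPM (log2 fold change 0.62, SE 0.095, adjusted p = 9.33e-04). Vcam1, an adhesion molecule used to sort satellite cells, fell from 140.4 and 152 to 57.4 and 61.5 CPM (log2 fold change -1.30, SE 0.109, adjusted p = 2.73e-05). Sdc3, a syndecan, and Met, the receptor of hepatocyte growth factor, also fell (-0.79 and -0.42), and Sdc4 was not called (0.07, adjusted p = 0.357). Spry1, an inhibitor of receptor tyrosine kinase signalling that satellite cells need to return to quiescence, went from 10.4 and 11.0 to 84.0 and 85.0 CPM (log2 fold change 2.98, SE 0.0766, adjusted p = 2.27e-08), and was at 96.6 and 94.9 CPM in myotubes. Foxo1 and Foxo3, transcription factors of resting cells, rose by 0.92 and 0.70. Ncam1, Megf10 and Itga7, membrane proteins of the myogenic lineage, were higher too (1.42, 1.01 and 0.80), and each was higher still in myotubes. Of the other 2 listed satellite cell genes, Calcr had no count in any library and Pax3 had 9 counts in the myoblasts and none elsewhere.

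Notch signalling keeps satellite cells quiescent, and its genes went in both directions here. Jag1 and Dll1, both ligands, rose from 5.48 and 6.36 to 29.8 and 33.6 CPM (log2 fold change 2.41, SE 0.177, adjusted p = 1.21e-05) and from 11.2 and 11.3 to 82.0 and 73.5 CPM (log2 fold change 2.78, SE 0.0886, adjusted p = 7.52e-08). The ligand Jag2 went the other way (-1.55). The receptors Notch1 and Notch2 were slightly lower (-0.26 and -0.22), and Notch3 was at 315 and 326 CPM in the myoblasts, 342 and 345 CPM in the reserve cells and 57.7 and 56.8 CPM in the myotubes and was not called against myoblasts (0.10, adjusted p = 0.0934). Of the target genes, Heyl rose (0.65, SE 0.12), Hes1 rose by 0.26 and Hey1 fell from 22.5 and 26.1 to 6.61 and 6.11 CPM (log2 fold change -1.93, SE 0.217, adjusted p = 1.49e-04). The call was lost for Notch1 without myoblast or reserve cell library 1, for Notch2 without myoblast library 2 or reserve cell library 1, and for Hes1 without either myoblast library or reserve cell library 2. In all 5 of 15 Notch genes were higher and 6 lower, with a median of 0.10. Against myotubes 12 of the 15 were higher.

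Inhibitors of myogenic factors fell. Id3, which binds E proteins and keeps them from pairing with MyoD, went from 188 and 169 to 25.3 and 28.8 CPM (log2 fold change -2.72, SE 0.108, adjusted p = 2.87e-07). Id1 and Id2 fell as well (-1.48 and -0.89), as did the E protein gene Tcf3 (-1.14), and Tcf4 was the only one of 7 Id and E protein genes called higher (0.89). Msc, a repressor of MyoD activity, went from 12.8 and 15.5 to 1.26 and 2.07 CPM (log2 fold change -3.08, SE 0.534, adjusted p = 0.00179).

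Among myogenic factors Myf5 fell and Myog and Mef2c rose. Myf5, the early determination factor, was at 53.6 and 60.2 CPM in the myoblasts and 20.3 and 21 CPM in the reserve cells (log2 fold change -1.46, SE 0.105, adjusted p = 1.07e-05). Myod1 differed little, at 213 and 201 CPM in the myoblasts and 169 and 189.9 CPM in the reserve cells (log2 fold change -0.21, SE 0.0637, adjusted p = 0.0282), and leaving out either myoblast library or reserve cell library 1 ended the call. Myog, which drives terminal differentiation, was at 106 and 101 CPM in the myoblasts, 521 and 514 CPM in the reserve cells and 1162 and 1144 CPM in the myotubes, and its rise was 5.0-fold (log2 fold change 2.32, SE 0.0404, adjusted p = 2.88e-09). Mef2c, its partner in activating muscle genes, was at 1.05 and 0.968 CPM in the myoblasts, 237 and 248 CPM in the reserve cells and 1173 and 1210.3 CPM in the myotubes (log2 fold change 7.90, SE 0.0699, adjusted p = 8.26e-11). Its relatives Mef2a and Mef2d rose by 1.23 and 1.05. Eya1, upstream in the lineage, was lower (-0.43) and lost its call without any 1 of the 4 libraries. The list of 12 myogenic factors held 6 higher and 5 lower.

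The reserve cell libraries held muscle transcripts far above the myoblast level. Of 37 sarcomere genes 36 were higher and none lower, with a median fold change of 5.44 (5.42 with the 3 genes at 0 in myoblasts set to their lower bounds). Of 23 genes that couple excitation to contraction or build the neuromuscular junction 22 were higher (median 2.14), and of 16 muscle metabolic genes 14 (median 3.92, or 3.80 with 2 genes at their bounds). Acta1, skeletal muscle actin, was at 52.0 and 53.5 CPM in the myoblasts, 2535 and 2558 CPM in the reserve cells and 8199.6 and 8172 CPM in the myotubes (log2 fold change 5.59, SE 0.0284, adjusted p = 6.01e-12). Myh3, the embryonic myosin heavy chain, was at 40.4 and 33.7 CPM in the myoblasts, 1661 and 1702 CPM in the reserve cells and 5101 and 5298 CPM in the myotubes (log2 fold change 5.51, SE 0.0788, adjusted p = 8.15e-10). Ckm, the creatine kinase of muscle, was at 7.53 and 6.5 CPM in the myoblasts, 277 and 296 CPM in the reserve cells and 1418 and 1367 CPM in the myotubes (log2 fold change 5.36, SE 0.072, adjusted p = 6.12e-10). In each the 3 populations were apart, with the reserve cells in between.

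The 15 largest increases among named genes of at least 10 CPM held many muscle genes. Mybpc2, Myl2 and Dmd, which encode a thick filament protein, a myosin light chain and dystrophin, had no count in either myoblast library. Against the floor of 3 counts over the group, their reserve cell levels of 21.7 and 24.1, 14.8 and 14.5 and 16.3 and 19 CPM were at least 296-fold, 190-fold and 228-fold higher. Fxyd6, a regulator of the sodium pump, and Adprhl1 were likewise listed at 0 in myoblasts and at 18.1 and 17.1 and 12.6 and 14.2 CPM in reserve cells, at least 228-fold and 173-fold higher. Ighm, at 15.4 and 17.4 CPM, is the immunoglobulin heavy constant gene, and was at 96.9 and 113 CPM in myotubes. Adamtsl2, a secreted glycoprotein, was listed at 0 in myoblasts and at 26.8 and 32.3 CPM in reserve cells, at least 382-fold higher.

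The others of the 15 largest increases were detected in myoblasts. They were Myh4 (9.74), Csrp3 (8.39), Casq1 (8.34), Myo18b (8.29), Cav3 (8.19), Myoz2 (8.05), Mef2c (7.90) and Ankrd2. They encode, in that order, a fast myosin, a Z-disc protein, the calcium store of the sarcoplasmic reticulum, a myosin, the caveolin of muscle, another Z-disc protein, the transcription factor above and a stretch-responsive ankyrin protein. Ankrd2 had 2 counts in the myoblasts and 1712 in the reserve cells, a ratio of 849 with a 95% counting interval of 235 to 7019. Most of these folds rest on few myoblast counts. Myh4 had 5 and 0 in the 2 libraries, Csrp3 4 and 0, and Myo18b 0 and 4, and without 1 library their fold changes ran from 8.60 to 14.07, 7.26 to 12.41 and 7.49 to 12.24, where the upper end is a fit against a library at 0 and no measured fold. Casq1 had 9 myoblast counts in all, Cav3 6 and Myoz2 8, and theirs ran from 7.75 to 9.05, 7.62 to 8.89 and 7.63 to 8.83. Reads of Myh4 and other fast myosins, and of Acta1 and the other actins, can be shared between near-identical copies. Neb, the single sarcomere gene not called, had myoblast libraries that disagreed, at 0.817 and 22.3 CPM, against 37.9 and 60.7 CPM (2.04, adjusted p = 0.068).

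Relative to myotubes, the muscle genes of the reserve cell libraries were lower. All 37 sarcomere genes, 21 of 23 coupling and junction genes and 15 of 16 metabolic genes were lower than in myotubes, with median differences of -2.06, -1.81 and -2.25. Among those below 5 CPM in myoblasts the reserve cell level was a median of 19.6% of the myotube level for 15 sarcomere genes (14.3% in Myoz1 to 31.7% in Myh7). It was 19.1% for 7 coupling and junction genes (15.8% in Casq1 to 28.5% in Cacna1s) and 19.5% for 11 metabolic genes (11.1% in Cox7a1 to 32.0% in Phkg1). Of genes outside these lists Myog was at 44.9% of its myotube level, Mymk, the fusogen myomaker, at 34.6% and Mymx, its partner myomixer, at 79.8%. In these bulk libraries fewer cells of a type and less RNA per cell cannot be told apart, and the part of myotubes left among the reserve cells was not tested.

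**Figure D3:**
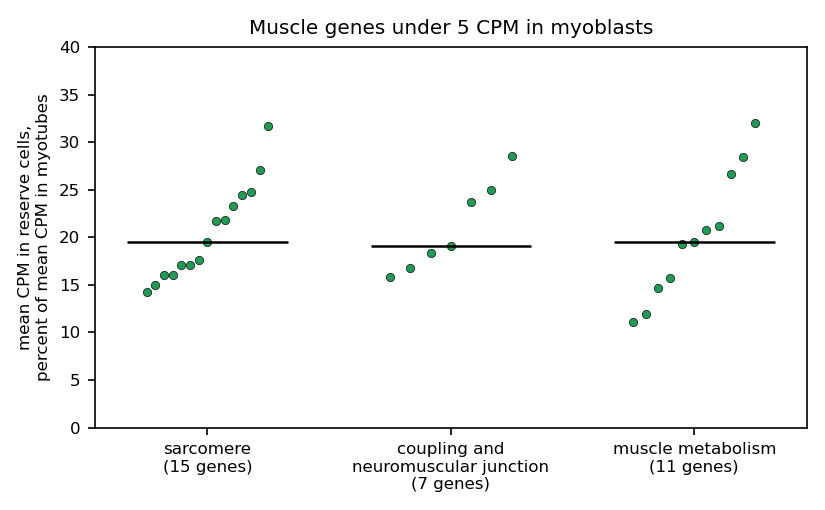
Mean reserve cell level as a percentage of the mean myotube level (y axis, CPM in both) for each muscle gene below 5 CPM in myoblasts, 1 point per gene, in 3 lists (x axis), with the median of each list as a line. The medians are 19.6%, 19.1% and 19.5%, and the points run from 11.1% to 32.0%.

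Of 11 fusion genes 7 were higher in reserve cells and 2 were lower. Mymk rose from 21.9 and 22.5 to 428 and 444 CPM (log2 fold change 4.29, SE 0.0431, adjusted p = 1.64e-10) and Mymx from 4.55 and 4.33 to 42.3 and 43.5 CPM (log2 fold change 3.27, SE 0.108, adjusted p = 9.34e-08). Cdon, a surface receptor that promotes differentiation, rose from 251 and 257 to 718 and 775 CPM, above the 499 and 519 CPM of myotubes. Jam2, an adhesion molecule, and Myof, a ferlin, were lower (-0.97 and -0.32).

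**Figure D4:**
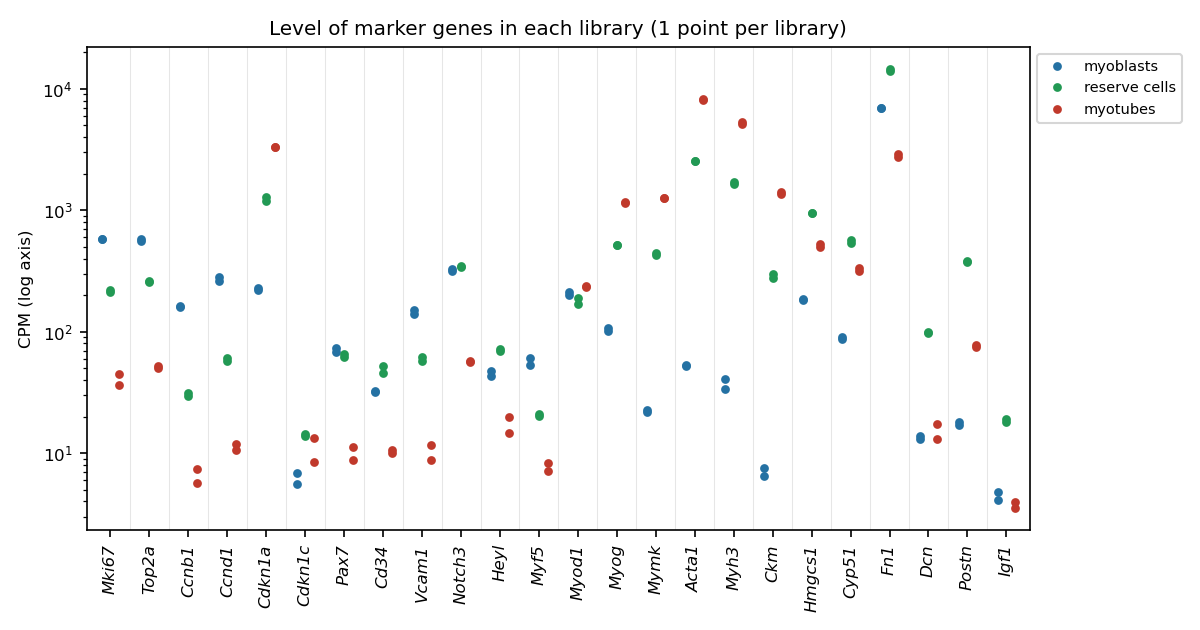
Level in CPM (y axis, log scale) of named genes (x axis) in each library, 1 point per library, for myoblasts (blue), reserve cells (green) and myotubes (red). Reserve cells lie between the other populations for Mki67, Cdkn1a, Myog and Acta1, near the myoblasts for Pax7 and Notch3, and above both for Hmgcs1, Fn1, Dcn, Postn and Igf1.

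The E-box CAGCTG, a sequence bound by MyoD family factors, was in 11 of 29 sarcomere promoters (37.9%), against 16.1% of all promoters. The Acta1 promoter (chr8:123894726-123895025, minus strand, GRCm38.p6, RefSeq) is shown as that of the sarcomere gene with the smallest adjusted p. Its 1 match, in capitals, begins 221 bases before the start.
Acta1: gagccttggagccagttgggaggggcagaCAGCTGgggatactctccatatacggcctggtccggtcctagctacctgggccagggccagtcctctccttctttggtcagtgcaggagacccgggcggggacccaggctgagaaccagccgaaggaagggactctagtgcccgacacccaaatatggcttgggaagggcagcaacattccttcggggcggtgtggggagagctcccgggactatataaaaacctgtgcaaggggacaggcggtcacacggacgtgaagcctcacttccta

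Every gene of sterol and fatty acid synthesis tested was higher in reserve cells than in myoblasts. This held for 26 of 26, of which 21 were at least 2-fold higher, with a median fold change of 1.5, and 25 were also higher than in myotubes. Hmgcs1, an early enzyme of the cholesterol pathway, was at 183 and 186 CPM in the myoblasts, 948 and 952 CPM in the reserve cells and 497 and 531 CPM in the myotubes. It was 5.15-fold above the myoblasts (log2 fold change 2.37, SE 0.0431, adjusted p = 3.48e-09) and above the myotubes by 0.89 on the log2 scale (adjusted p = 5.71e-07). Cyp51, an enzyme of the later sterol steps, was at 87.4 and 90.6 CPM in the myoblasts, 566 and 543 CPM in the reserve cells and 318 and 336 CPM in the myotubes (log2 fold change 2.64, SE 0.05, adjusted p = 4.03e-09). Lss, which closes the sterol rings, rose by 2.52. The largest increase was that of Mvd (2.88) and the smallest that of Elovl6 (0.38), and the regulators Srebf2 and Srebf1 rose by 0.45 and 0.65. Dhcr7, the last enzyme of cholesterol synthesis, was the 1 gene lower than in myotubes, at 128 and 152 CPM against 308 and 296 CPM.

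CCAAT was found in 14 of the 17 promoters matched of this list (82.4%), against 37.9% of all promoters. The Hmgcs1 promoter (chr13:119690101-119690400, plus strand, GRCm38.p6, RefSeq) holds 4 matches, all read as ATTGG and shown in capitals, and the other motifs searched do not occur in this window.
Hmgcs1: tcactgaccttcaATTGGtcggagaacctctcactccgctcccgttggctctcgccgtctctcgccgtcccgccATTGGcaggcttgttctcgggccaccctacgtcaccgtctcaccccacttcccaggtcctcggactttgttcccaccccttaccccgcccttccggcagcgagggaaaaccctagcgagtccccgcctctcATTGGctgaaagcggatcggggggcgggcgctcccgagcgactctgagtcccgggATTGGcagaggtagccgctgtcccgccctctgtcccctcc

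Extracellular matrix genes changed in both directions from myoblasts and were mostly higher than in myotubes. Of 19 collagen genes 12 were higher than in myoblasts and 5 lower (median 0.56). Of 29 matrix glycoprotein and proteoglycan genes 17 were higher and 10 lower (median 0.79). Against myotubes 16 of the 19 and 26 of the 29 were higher, with medians of 2.38 and 2.12. Fn1, fibronectin, was at 6966 and 6978 CPM in the myoblasts, 14092 and 14608 CPM in the reserve cells and 2747 and 2919 CPM in the myotubes (log2 fold change 1.04, SE 0.0307, adjusted p = 4.96e-08). The 3 populations did not overlap, and the reserve cells were highest.

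Among the increases were proteins that organise fibrils. Thbs1, a matricellular protein that activates latent TGF-beta, was at 698 and 703 CPM in the myoblasts, 5226 and 5347 CPM in the reserve cells and 1022 and 1074 CPM in the myotubes (log2 fold change 2.92, SE 0.0326, adjusted p = 2.65e-10). Fbn1, the core of microfibrils, rose from 289 and 280.2 to 1209 and 1239 CPM (log2 fold change 2.11, SE 0.037, adjusted p = 2.93e-09). Dcn, decorin, rose from 13.1 and 13.8 to 97.2 and 98.6 CPM (log2 fold change 2.86, SE 0.12, adjusted p = 4.02e-07), and Postn, periostin, from 18.2 and 17.0 to 373 and 379 CPM (log2 fold change 4.42, SE 0.0645, adjusted p = 9.24e-10). Lox, an enzyme that crosslinks collagen, rose by 1.12. Among collagens the largest increases were of Col11a1 (2.92), Col6a2 (2.61), Col8a1 (2.05), Col5a1 (1.42) and Col1a1 (1.29).

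Basement membrane and interstitial genes were among the decreases, but basement membrane genes went both ways. Lama4, a laminin chain, had no count in the myoblasts and 108 in the reserve cells. Against the floor of 3 counts it was at least 35.7-fold higher. Nid1, which links laminin to collagen IV, fell from 1370.2 and 1399 to 268 and 271 CPM (log2 fold change -2.36, SE 0.0412, adjusted p = 2.88e-09). Loxl2, a relative of Lox, fell from 56.1 and 53.1 to 4.94 and 5.13 CPM (log2 fold change -3.44, SE 0.153, adjusted p = 5.74e-07), and Fbln1 and Col6a3 fell by 2.40 and 1.43 on the log2 scale. Col18a1, the source of endostatin, fell by 1.38. The other collagens called lower were Col14a1 (-1.54), whose call was lost without any 1 of the 4 libraries, Col16a1 (-0.83) and Col4a5 (-0.70). The chains of collagen VI therefore split, with Col6a2 higher and Col6a3 lower.

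Matrix proteases were mostly higher, and integrins were mixed. Of 15 matrix proteases and inhibitors 10 were higher and 2 lower. Mmp2, a gelatinase, and Timp3, an inhibitor held in the matrix, rose by 1.93 and 1.72, and Adamts5 and Adamts2 by 3.42 and 2.49. Plau, urokinase, fell (-1.19), as did Mmp11 (-0.34), a call lost without myoblast library 1 or either reserve cell library. Of 13 integrins in the list, which does not hold Itgb7, 6 were higher and 5 lower. Itgb5 (2.03) and Itga9 (6.47, from 5.35 to 10.50 without 1 library, as 1 myoblast library had no count) were higher, and Itga3 (-0.88), Itga4 (-1.53), Itga5 (-0.49), Itga6 (-0.82) and Itgb3 (-0.66) were lower.

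Some genes were highest in reserve cells among all 3 populations. The protein-coding genes called higher than in both others and with the largest increase over myoblasts began with Mfap5, a microfibril protein, at 0.467 and 0.415 CPM in the myoblasts, 42.5 and 47.0 CPM in the reserve cells and 5.48 and 5.87 CPM in the myotubes (log2 fold change 6.65, SE 0.19, adjusted p = 4.24e-08). Cilp, a cartilage matrix protein, was at 0.817 and 0.553 CPM in the myoblasts, 63.8 and 65.5 CPM in the reserve cells and 17.1 and 16.2 CPM in the myotubes. Prelp, a leucine-rich proteoglycan, was at 2.16 and 1.2 CPM in the myoblasts, 142 and 134 CPM in the reserve cells and 21.4 and 22.7 CPM in the myotubes. In each of these the reserve cell libraries were above every other library, which largely follows from how the genes were chosen. The rest of the first 15 were Ctrb1 (6.40 over myoblasts), Sfrp2 (5.91), Hsd11b1 (5.81), Adamtsl1 (5.74), Trabd2b (5.51), Nkd2 (5.29), Axin2 (5.16), Cmklr1 (5.10), Adamts16 (4.92), Fam180a (4.71), Car9 (4.44) and Postn. Sfrp2, Trabd2b, Nkd2 and Axin2 encode inhibitors of Wnt signalling. Trabd2b and Adamts16 had no count in myoblast library 1 and 18 and 17 in library 2, and without 1 library their fold changes ran from 4.63 to 11.51 and 4.04 to 10.83, so their place in this order is uncertain. That of Fam180a ran from 4.19 to 5.38.

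Of 24 Wnt pathway genes 12 were higher and 5 lower. Axin2, a feedback inhibitor that Wnt signalling itself induces, was at 0.525 and 0.415 CPM in the myoblasts, 17.2 and 16.6 CPM in the reserve cells and 9.17 and 10.8 CPM in the myotubes (log2 fold change 5.16, SE 0.247, adjusted p = 8.63e-07). Sfrp2, a secreted frizzled-related protein, was at 0.642 and 1.06 CPM in the myoblasts, 51.3 and 54.0 CPM in the reserve cells and 12 and 12.7 CPM in the myotubes (log2 fold change 5.91, SE 0.191, adjusted p = 8.17e-08). The ligand Wnt9a and the receptor Fzd1 rose by 3.05 and 1.55. Dkk2 (-2.63), Sfrp1 (-1.48), Wnt10b (-1.44), Fzd6 (-1.04) and Lrp5 (-0.31) fell, so antagonists of the pathway were found on both sides. Trabd2b and Nkd2 were not in the list.

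TGF-beta superfamily genes moved up with no exception among those called. Of 24 tested 20 were higher and none lower, although the median was 0.49. Fst, follistatin, which traps activin and myostatin, was at 2.45 and 3.0 CPM in the myoblasts, 141 and 148 CPM in the reserve cells and 334 and 334 CPM in the myotubes (log2 fold change 5.71, SE 0.0887, adjusted p = 1.36e-09). Tgfbr2, a TGF-beta receptor, and Tgfb3, a ligand, rose by 1.81 and 1.72. Grem1, which traps BMPs, went from 426 and 413 to 942 and 936 CPM against 156 and 155 CPM in myotubes. Of 15 YAP and TEAD genes 8 were higher and 5 lower. Ccn2, a secreted target of this pathway and of TGF-beta, and Tead4 rose by 2.00 and 1.97, and Yap1 itself was slightly lower (-0.23), a call lost without either myoblast library or reserve cell library 1.

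Insulin-like growth factors were higher, and their binding proteins were mixed. Of 14 genes of this system 8 were higher and 3 lower. Igfbp2, a binding protein, was at 904 and 875 CPM in the myoblasts, 34.5 and 33.1 CPM in the reserve cells and 6.19 and 9.07 CPM in the myotubes, a 26.3-fold fall from myoblasts (log2 fold change -4.72, SE 0.11, adjusted p = 1.36e-08). Igfbp5 fell from 5131 and 5147 to 1365 and 1426 CPM (log2 fold change -1.88, SE 0.0303, adjusted p = 1.79e-09), and Igfbp6 fell by 0.59 on the log2 scale. Igfbp4 rose by 3.19. Of the ligands, Igf1 was at 4.08 and 4.75 CPM in the myoblasts, 19 and 17.9 CPM in the reserve cells and 3.56 and 3.96 CPM in the myotubes (log2 fold change 2.06, SE 0.187, adjusted p = 4.26e-05) and Igf2 at 15.9 and 15.7 CPM in the myoblasts, 80.7 and 76.4 CPM in the reserve cells and 167 and 177 CPM in the myotubes (log2 fold change 2.31, SE 0.0767, adjusted p = 9.34e-08). Igf1 was therefore highest in reserve cells, and Igf2 in myotubes. H19, the long RNA next to Igf2, went from 2452 and 2349 to 4883 and 4486 CPM.

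Other growth factor genes were mixed. Of 15 FGF and Sprouty genes 6 were higher and 3 lower, and of 14 PDGF, EGF and HGF genes 7 were higher and 4 lower. Fgf2 rose from 9.22 and 14.8 to 37.0 and 37.0 CPM, and Fgfr3 by 3.67. Etv4, a target of FGF signalling, Dusp6 and Spred2 fell (-1.31, -0.33 and -0.39), with Dusp6 lost without myoblast library 1. Hgf, hepatocyte growth factor, went from 88.9 and 92.4 to 10.9 and 11.8 CPM (log2 fold change -3.0, SE 0.123, adjusted p = 3.60e-07). Areg and Pdgfra fell (-3.86 and -0.88), and Pdgfrb, Hbegf and Erbb3 rose (1.45, 1.44 and 1.63). Of 9 Hedgehog genes 6 were lower and none higher. Hhip, which binds Hedgehog ligands, went from 52.9 and 56.7 to 0.202 and 0.207 CPM (log2 fold change -8.02, SE 0.196, adjusted p = 1.79e-08), and the effector Gli3 and the co-receptor Gas1 fell by 0.79 and 0.82 on the log2 scale.

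**Figure D5:**
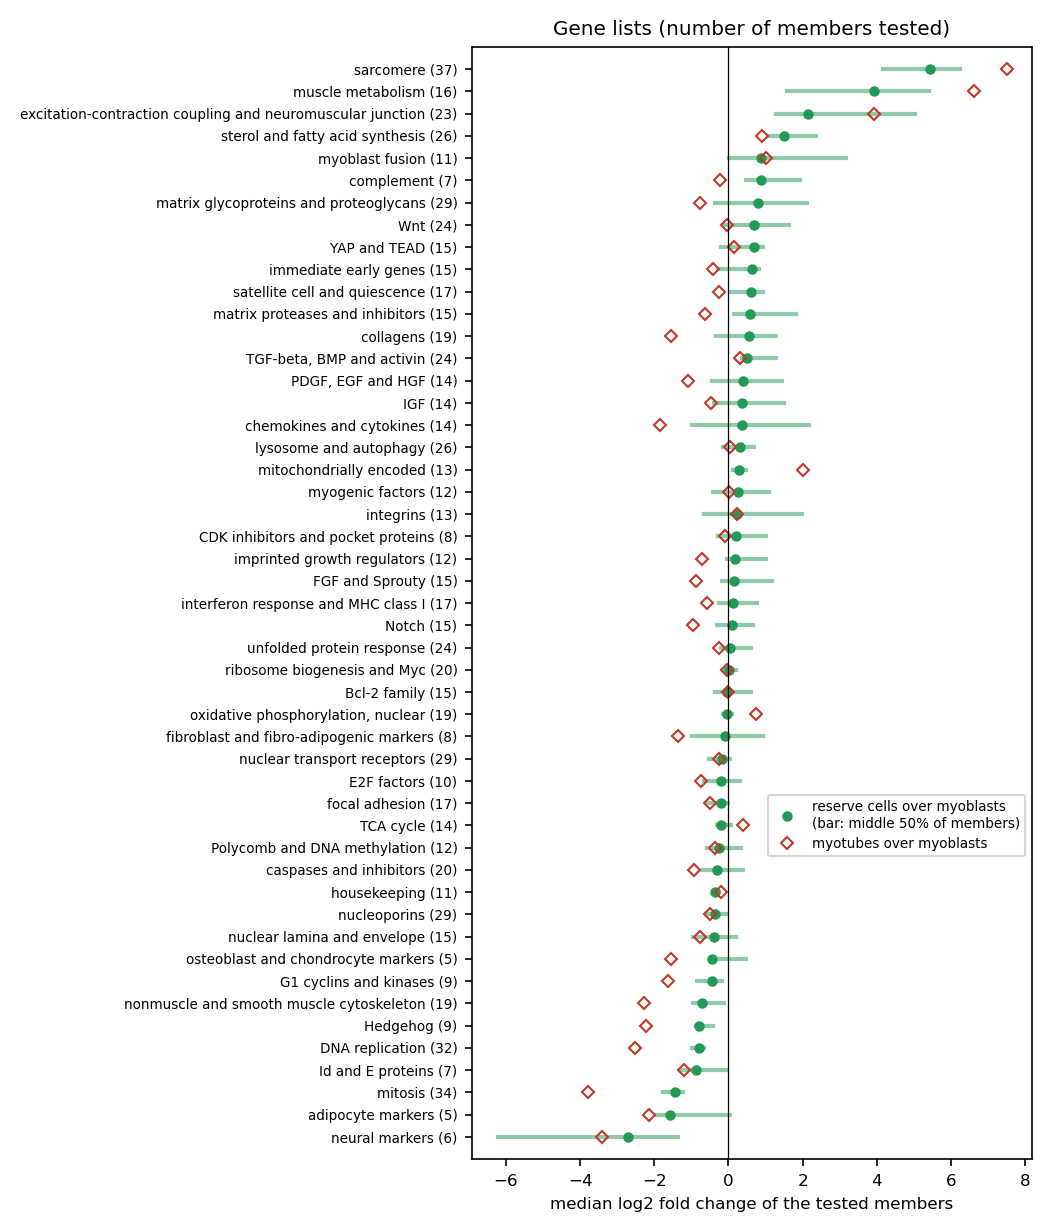
Median log2 fold change over myoblasts (x axis) of the tested members of each gene list with at least 5 tested (number in brackets), for reserve cells (green points, with the middle 50% of members as a bar) and for myotubes (red diamonds). Sarcomere, muscle metabolism and coupling genes are highest, followed by sterol and fatty acid synthesis, and mitosis, adipocyte and neural marker genes are lowest.

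The 15 largest declines, by the same rule, began with the proliferins. Prl2c3 and Prl2c2, proliferins, which are prolactin-family proteins secreted by growing cells, were at 83.6 and 110.2 and 30.6 and 28.8 CPM in myoblasts and had no count in reserve cells. The fall was at least 1285-fold for Prl2c3 and at least 386-fold for Prl2c2, against a floor of 3 counts over the 2 reserve cell libraries. Prl2c5 fell at least 21.8-fold. The proliferins are near-identical copies on chromosome 13 (Prl2c3 at chr13:12790816-12800079, Prl2c2 at chr13:12996125-13005383 on mm10), so the division of reads between them is uncertain.

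Neurofilament genes were next. Nefl had 4991 counts in the myoblasts and 3 in the reserve cells, a ratio of 1677 with a 95% counting interval of 573 to 8134, and Nefm went from 182 and 177 to 0.756 and 1.5 CPM (log2 fold change -7.31, SE 0.203, adjusted p = 3.64e-08). Their exons overlap on opposite strands of chromosome 14, and whether the counting used strand is not given in the sources used here. Ngfr, a neurotrophin receptor, went from 12.4 and 12.4 CPM to 0 and 0.104 CPM. The other large declines were Itgb7 (-7.17), an integrin outside the list of 13, Slc15a3 (-6.35), Gap43 (-5.33), Ptprn (-4.84), Cxcl5 (-4.75), Celf4 (-4.65), Krt13 (-4.61) and Pcdhga9, with Hhip and Igfbp2 above. Gap43 is a growth cone protein, and Cxcl5 is a chemokine. Without 1 library the fold change of Slc15a3 ran from -6.81 to -5.70 and that of Krt13 from -5.38 to -4.11. Exons of Slc15a3 overlap those of Tmem132a on the other strand. Pcdhga9 shares its 3' exons with other protocadherin gamma genes, its fit was loose (-5.47, SE 1.43), and leaving out myoblast library 2 or either reserve cell library ended the call.

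A smaller set was called lower in reserve cells than in both other populations. Pcdhga9 had the largest decrease from myoblasts, but its myotube libraries, at 0.142 and 33.9 CPM, lay on both sides of the reserve cells, at 0.958 and 1.09 CPM. Gsta4, a glutathione transferase, was at 117 and 117 CPM in the myoblasts, 7.62 and 6.37 CPM in the reserve cells and 16 and 14.3 CPM in the myotubes (log2 fold change -4.06, SE 0.104, adjusted p = 2.18e-08). Krt19, a keratin, was at 30.7 and 34.3 CPM in the myoblasts, 3.73 and 3.06 CPM in the reserve cells and 23.3 and 21.1 CPM in the myotubes, and Adam8, a membrane metalloprotease, at 35.4 and 33.8 CPM in the myoblasts, 4.94 and 3.63 CPM in the reserve cells and 15.2 and 17.8 CPM in the myotubes. Rnf128, a ubiquitin ligase, was at 34.8 and 38.6 CPM in the myoblasts, 6.76 and 8.50 CPM in the reserve cells and 35.5 and 32.8 CPM in the myotubes. In Rnf128 the myotube libraries lay within or near the range of the myoblast libraries. That the reserve cells were below both follows from how this set was chosen. The others of the first 10 were Dync1i1 (-2.88), S1pr1 (-2.74), Robo2 (-2.27), Gata4 (-2.03) and Mgst3 (-1.93).

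Genes of the nuclear pore were more often lower than higher. Nucleoporins form the pore, and of 29 tested 17 were lower, 3 higher and 9 not called, with a median of -0.36. Nup205, of the inner ring, was at 172 and 162 CPM in the myoblasts and 95.2 and 91.7 CPM in the reserve cells (log2 fold change -0.84, SE 0.0635, adjusted p = 1.49e-05), and Ndc1, which anchors the pore in the membrane, and Nup85, of the outer ring, fell by 0.81 and 0.63 on the log2 scale. Nup210, a membrane nucleoporin induced during muscle differentiation, had 2 counts in the myoblasts and 116 in the reserve cells, a ratio of 57.5 with a 95% counting interval of 15.6 to 481, and its level was 7.89 and 4.94 CPM in myotubes. Seh1l and Sec13 were the other 2 higher (0.37 and 0.22), and Sec13 lost its call with library totals and without either myoblast library or reserve cell library 1. Among 29 transport receptors and Ran cycle genes 15 were lower and 5 higher. Xpo1, the main export receptor, went from 228 and 228 to 118 and 115 CPM (log2 fold change -0.97, SE 0.0643, adjusted p = 6.42e-06), Kpna2, Kpnb1 and Ranbp1 fell by 0.94, 0.51 and 0.87 on the log2 scale, and Kpna1 rose by 0.82. Of 15 lamina and envelope genes 8 were lower and 2 higher, led by Lmnb1, lamin B1, which fell from 170.4 and 157 to 47.0 and 46.2 CPM (log2 fold change -1.81, SE 0.099, adjusted p = 1.99e-06).

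Caspase genes were mostly lower. Of 20 caspase, inhibitor and calpain genes 11 were lower and 5 higher. Apaf1, which assembles the apoptosome, was at 48.6 and 51.5 CPM in the myoblasts and 21.9 and 21.8 CPM in the reserve cells (log2 fold change -1.2, SE 0.0925, adjusted p = 1.64e-05). Casp12, a caspase of the endoplasmic reticulum, rose from 17.9 and 22.6 to 56.2 and 56.0 CPM (log2 fold change 1.46, SE 0.116, adjusted p = 1.85e-05), and Casp4, Cflar, Birc2 and Diablo were the others called higher (1.84, 0.50, 0.37 and 0.48), with Birc2 lost without myoblast library 2 or reserve cell library 1. Xiap, which inhibits active caspases, fell by 0.34 on the log2 scale (adjusted p = 0.00735), a call that leaving out myoblast library 2 ended. Of 15 Bcl-2 family genes 7 were higher and 4 lower, among them Bmf (1.67), Bcl2l2 (0.76) and Mcl1 (0.46) upward and Bak1 (-0.91) and Bax (-0.46) downward. Of 24 unfolded protein response genes 9 were higher and 8 lower. Herpud1, of endoplasmic reticulum degradation, rose from 59.2 and 54.0 to 233 and 231 CPM (log2 fold change 2.04, SE 0.0614, adjusted p = 5.53e-08), Atf6 rose by 1.16, and Atf3 and Hsp90b1 fell (-1.87 and -0.48).

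Cytoskeletal genes were mostly lower, with Acta2 and Tagln among the exceptions. Of 19 nonmuscle and smooth muscle cytoskeletal genes 13 were lower and 3 higher (median -0.71). Actb, cytoplasmic actin, went from 3299 and 3220.3 to 1556 and 1523 CPM (log2 fold change -1.08, SE 0.0283, adjusted p = 2.48e-08), and Actg1 fell by 1.10 on the log2 scale. Acta2, smooth muscle actin, was at 667 and 651 CPM in the myoblasts, 2323 and 2289.8 CPM in the reserve cells and 1140.1 and 1073 CPM in the myotubes (log2 fold change 1.81, SE 0.0365, adjusted p = 5.92e-09), and Tagln, transgelin, rose from 79.3 and 68.8 to 319 and 288 CPM (log2 fold change 2.04, SE 0.11, adjusted p = 1.88e-06). Cnn3 was the other gene higher (0.53). Actin genes are close in sequence, so reads can be split between them. Of 17 focal adhesion genes 9 were lower and 1 higher, with Zyx, Src, Ilk and Tgfb1i1 lower (-0.84, -1.33, -0.56 and -1.04) and Fermt2, a kindlin, higher (0.18). Fermt2 lost its call with library totals and without any 1 of the 4 libraries.

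Genes of ribosome production and energy metabolism were called in both directions, except the mitochondrially encoded ones. The share called was 40% for ribosome biogenesis and 47.4% for nuclear oxidative phosphorylation. It was 53.8% for mitochondrially encoded genes and 78.6% for the citric acid cycle, against 46.1% of all genes tested. Of 20 ribosome biogenesis genes 4 were higher and 4 lower, with a median of 0.01. Npm1 and Fbl, nucleolar proteins, fell (-0.59 and -0.57), Rrp12 rose (1.30), and Myc was at 29.2 and 31.2 CPM in the myoblasts and 38.7 and 38.4 CPM in the reserve cells (log2 fold change 0.35, SE 0.0871, adjusted p = 0.0111), a call lost without myoblast library 1 or either reserve cell library. Of 19 nuclear genes of oxidative phosphorylation 3 were higher and 6 lower, and all 19 were below their myotube level. Of 14 genes of the citric acid cycle 4 were higher and 7 lower, including Idh2 (-0.87) and Cs, citrate synthase (-0.69). Of 13 mitochondrially encoded genes 7 were higher and none lower (median 0.29), with mt-Nd4 at 0.80 and mt-Nd5, which overlaps mt-Nd6 on the other strand, among them. The mitochondrial share of all counts was 1.89% and 1.90% in the myoblast libraries and 2.36% in both reserve cell libraries.

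Lysosomal and regulatory genes had members on both sides. Of 26 lysosome and autophagy genes 14 were higher and 5 lower, with Ctsd (1.14), Map1lc3a (1.45) and Bnip3 (1.39) higher and Ctsl (-0.58) lower. Among 12 Polycomb and DNA methylation genes 6 were lower and 1 higher. Ezh2, the histone methyltransferase of cycling cells, went from 63.9 and 70.2 to 34.2 and 37.7 CPM (log2 fold change -0.90, SE 0.0838, adjusted p = 4.95e-05), Ezh1, its counterpart in resting cells, from 52.0 and 55.1 to 100.2 and 96.9 CPM (log2 fold change 0.88, SE 0.0702, adjusted p = 1.96e-05), and Dnmt1 fell by 1.0 on the log2 scale. Of 15 immediate early genes 7 were higher and 4 lower. Junb rose from 149 and 138 to 454 and 457 CPM (log2 fold change 1.66, SE 0.053, adjusted p = 7.54e-08) and Fosl1 fell from 55.7 and 58.1 to 14.8 and 18.3 CPM (log2 fold change -1.78, SE 0.147, adjusted p = 2.38e-05). Both encode partners in AP-1 transcription factors, and exons of Junb overlap Prdx2 on the other strand.

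Listed markers of other cell types, summed per library, were lower than in myoblasts for 5 of 6 lineages. The macrophage and leukocyte markers summed to 7.62 to 7.72 CPM in reserve cells against 12 to 12.6 CPM in myoblasts, with 4 of 10 tested, and Ptprc, Adgre1 and Cd3e were among those with no count in any library. The endothelial markers summed to 1.35 to 1.66 CPM against 0.646 to 1.40 CPM, with 2 of 8 tested, neither called, and Tie1 and Emcn at 0 throughout. Adipocyte markers summed to 105 to 112 CPM against 137 to 141 CPM, with Adipoq, Plin1, Cidec, Lep and Cfd at 0, and 3 of 5 tested were lower, among them Pparg (-1.93) and Lpl (-1.58). Osteoblast and chondrocyte markers summed to 2595 to 2640 CPM against 3470 to 3535 CPM, with Ibsp and Acan at 0, most of it Spp1, osteopontin, at 3310.0 and 3369 CPM in the myoblasts and 2498 and 2438 CPM in the reserve cells. Of 5 tested 2 were higher and 3 lower. Fibroblast and fibro-adipogenic markers summed to 622 to 648 CPM against 794 to 809 CPM, with 8 of 13 tested, 3 lower (Twist2 -1.75, Ly6a -1.32, Pdgfra -0.88) and Pi16 higher (1.62). The matrix genes Dcn, Postn and Mfap5 (higher) and Fbln1 (lower), given above, are not in this list. The sum therefore depends on the members chosen. Neural markers summed to 33.8 to 37.8 CPM against 477 to 485 CPM, and 5 of 6 tested were lower, Nefl and Nefm included. The part of other cell types in the results above was not tested.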

How the data were processed

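Polyadenylated RNA of C2C12 myoblasts, reserve cells and myotubes (2 libraries each) was sequenced by the authors as read pairs. The submitters' processing notes name HISAT2, SAMtools, StringTie, DESeq2 and build mm10. Versions: not given in the sources used here. The deposited values are estimated counts per transcript for each library, whole as deposited, so no rounding was needed. How StringTie divides reads among overlapping transcripts affects each gene's count. The deposited table of the whole series was not used.

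Of 142604 transcripts, 141374 were paired with a gene of GENCODE mouse release M21 and summed, and 1230 were kept as unpaired transcripts. Of 25308 features with a count, 15467 passed filterByExpr (minimum count 10). TMM factors and glmQLFTest of edgeR 4.0.16 (R 4.3.3) were applied to all 6 libraries without a block, with Benjamini-Hochberg adjustment and a threshold of 0.05. The steps were run on simulated counts in which 200 genes were changed. That is far fewer than were called here, so the simulation does not test the scaling at the amount of change in these data. Totals of the 4 libraries compared ran from 15795389 to 20055078. Replicates of a group differed by more than sampling noise, and the chi-square divided by its degrees of freedom was 6.53 (myoblasts) and 8.0 (reserve cells). Counting intervals and floors (3 counts) cover counting error only.

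The text describes 52 lists of 889 genes, of which 820 were tested. Named genes were the 15 largest changes in each direction (official symbol, at least 10 CPM, groups not overlapping), anchor genes of the lists, and of each list the 4 smallest adjusted p and the members called against the list's majority. Genes higher or lower than in both other populations were added after seeing the data. Mcm6, Ube2c, Gins1, Pcna, Rpa2, Rrm1, Neb, Mvd, Elovl6, Srebf1, Srebf2, Dhcr7, Col11a1 and Lama4 were named after their values were seen. List members not named are given only by their list's counts. The comparison, members and lists were chosen with earlier results of these data known. Alternatives used DESeq2 1.42.0 and limma 3.58.1 among other settings, 16 in all.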

Additional observations from a re-analysis of the deposited data

How the results depend on the processing

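Of 363 named genes 353 were called, and 314 kept direction and call under every alternative run. Over all named genes and alternatives, 5627 values kept their call, 148 lost it, 6 gained one and none reversed. The number of changed genes ran from 5501 to 7372 over the alternatives, against 7133, and for reserve cells against myotubes from 7183 to 8980. The number changed at least 2-fold was 2606, 1579 with a filter at 10 CPM in 2 libraries and 1693 by limma-trend. That filter, which tests fewer genes, left 7 Wnt genes higher (of 12), 3 chemokines and cytokines (of 6), 3 complement genes (of 5) and 3 neural markers lower (of 5).

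Leaving out 1 library gave 2299 to 2664 genes changed at least 2-fold. It gave 9 to 12 Wnt genes and 5 to 6 chemokines and cytokines higher. It gave 3 to 6 FGF and Sprouty genes higher (3 without either myoblast library or reserve cell library 2), 4 to 7 Bcl-2 family genes higher (4 without myoblast or reserve cell library 1) and 3 to 5 complement genes higher (3 without myoblast library 2 or reserve cell library 1). It gave 6 to 11 caspase list genes lower (6 without myoblast library 2), 3 to 5 neural markers (3 without myoblast library 2) and 4 to 9 housekeeping genes (4 without myoblast library 2 or reserve cell library 2). Of nuclear oxidative phosphorylation genes 2 to 5 were lower (3 without myoblast library 1, 2 without reserve cell library 2). The cause was not tested. In the 250 bases before the start alone, TTTGAA was in 40.7% of mitosis promoters, the E2F sequence in 18.5% of replication promoters, that sequence in 0% of mitosis promoters and the E-box in 0% of replication promoters.

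With the replicate number as a block in the fit 6954 genes changed, 2507 of them at least 2-fold. Deviations of same-numbered libraries correlated at 0.04 between myoblasts and reserve cells. The labels do not say whether same-numbered libraries share a culture or day. With 2 libraries per group this correlation cannot decide it. With 2 libraries per group and a coefficient of variation of 12.9% between replicates, small changes of weakly counted genes were not detectable at this depth.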

Other observations

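Long noncoding and antisense genes were called less often than all genes, and those called were more often higher than lower in reserve cells. The share called was 33.8% for lincRNA genes, 16.3% for antisense genes and 14.1% for processed pseudogenes. Over all genes tested it was 46.1%. Of 340 lincRNA genes tested 89 were higher and 26 lower, and of 539 antisense genes 69 were higher and 19 lower, while of 12911 protein-coding genes 3416 were higher and 3189 lower. Processed pseudogenes went the other way, with 17 of 632 higher and 72 lower. Among transcripts paired with no gene, 71 of 281 were higher and 21 lower. ENSMUST00000238288.1 had no count in myoblasts, 787.6 and 868.0 CPM in reserve cells and 2348 and 3189.5 CPM in myotubes.

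Of 17 interferon response and MHC class I genes 29.4% were called, a smaller share than the 46.1% of all genes tested. The 4 higher included Stat2 (0.72), Irf9 (0.97) and Ifi27 (0.77). Ifitm3 was lower (-0.30), a call lost without myoblast or reserve cell library 2. Of 14 chemokines and cytokines 6 were higher, with Lif (3.2), Il15 (2.85, from 2.45 to 3.48 without 1 library) and Csf1 (0.40) among them, and Cxcl1 (-3.19), Cxcl5 and Il33 (-0.59) were lower, with Il33 lost without myoblast or reserve cell library 2. Of 7 complement genes 5 were higher and none lower, with C1ra, the C1r protease, at 5.60 and 4.93 CPM in the myoblasts and 10.4 and 9.01 CPM in the reserve cells, a call lost without myoblast library 2 or reserve cell library 1. Of 12 imprinted growth regulators 6 were higher and 2 lower, the latter Peg3 (-1.13) and Usp29 (-1.75).

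Genes often used as references were not level. Of 11 housekeeping genes 7 were lower and 1 higher, with Ppia, cyclophilin A, at 1333 and 1328 CPM in the myoblasts and 1014 and 1046 CPM in the reserve cells (log2 fold change -0.37, SE 0.0345, adjusted p = 5.02e-05), Ywhaz at -0.63 and Pgk1 at -0.33. Tfrc, the transferrin receptor, was the one higher (1.46). Gapdh, looked at after its values were seen, had 62.3 and 68.0 CPM in the myoblasts and 55.1 and 45.1 CPM in the reserve cells. These levels were far below those of Ppia, and how completely reads were assigned to Gapdh was not tested.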
